A study of Mus musculus with 8 samples.

Results

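The genes described here bring glucose into the cell and commit it to glycolysis. They are the glucose transporter genes *Slc2a1*, *Slc2a3* and *Slc2a6*, the hexokinase genes *Hk1*, *Hk2* and *Hk3*, the phosphofructokinase-2 genes *Pfkfb2*, *Pfkfb3* and *Pfkfb4*, and *Tigar*. They were chosen by their gene symbols, and all 10 were found among the 54838 genes counted. RNA was sequenced from mouse *iMLL-AF9* cells, bone marrow cells transformed by a doxycycline-inducible allele of the *MLL-AF9* fusion oncogene, on a C57BL/6 background. The labels give their cell type as leukaemic stem cells and their genotype as WT, so both groups share the inducible oncogene and no deletion is named for either. One group received IOX5, an inhibitor of the HIF prolyl hydroxylases (PHDs), and the other DMSO, the solvent used as the vehicle control, with 4 samples in each group numbered 1 to 4. The methods name a general IOX5 concentration for cultured cells and a general age range for the mice of the study, but tie neither to these samples. The duration of treatment and whether the numbers stand for mice, cultures or days are not given in the sources used here. The study's methods call the cells leukemic, whereas the design text of the series calls them preleukaemic. Because nothing says that the samples came from separate cultures or animals, p-values measure only the spread between these samples, which may be technical.

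Cells take up glucose through facilitative transporters of the SLC2A (GLUT) family, and hexokinases phosphorylate it so that it cannot leave. The PFKFB enzymes make and remove fructose 2,6-bisphosphate, a strong activator of phosphofructokinase, and thereby set the pace of glycolysis. TIGAR removes the same activator and diverts sugar toward the pentose phosphate pathway. PHDs mark HIF-α subunits for degradation when oxygen is present. When PHDs are inhibited, HIF-α accumulates, pairs with ARNT and binds short DNA elements with the core ACGTG or GCGTG. *Slc2a1*, *Slc2a3*, *Hk1*, *Hk2*, *Pfkfb3* and *Pfkfb4* are textbook HIF targets, and *Tigar* is known as a p53 target. The comparison of IOX5 with DMSO therefore asks how far the entry of glucose into glycolysis changed at the level of RNA.

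Some facts of the data set bear on the values. Reads assigned to genes numbered 12343770 to 14116054 per DMSO sample and 11351507 to 12708888 per IOX5 sample. Samples that share a number resembled each other, and the numbers differed from one another in ways that depended on the gene. *Cd34*, a marker of stem and progenitor cells, was at 23.2 to 25.98 CPM (read counts scaled to library size and normalized by TMM) in DMSO samples 1 and 2 and at 133.1 to 153.0 CPM in DMSO samples 3 and 4. *Gata2*, a mast cell and basophil marker, was at 37.2 CPM in DMSO sample 2 and at 120.9 to 164.5 CPM in the other DMSO samples. The 8 genes fixed to check the labelled identity (*Ptprc*, *Kit*, *Cd34*, *Hoxa9*, *Hoxa10*, *Meis1*, *Spi1* and *Itgam*) all had reads, with summed levels of 1258 to 1403 CPM with DMSO and 1328 to 1607 CPM with IOX5. At an adjusted p under 0.05, neither edgeR nor DESeq2 called any of the 8 when the sample numbers were not used. With the number as a block in the edgeR fit, 3 were called higher (*Kit*, *Cd34* and *Itgam*), beside 11.2% of all genes tested, and 3 of the 8 values were below 0. The summed level of 12 monocyte and macrophage markers did not overlap between groups, at 1007 to 1352 CPM with DMSO and 1489 to 3004 CPM with IOX5, where IOX5 sample 2 was the highest. All 12 of these markers had reads, but *C1qa* and *Marco* averaged under 1 CPM in both groups, and *Cd14* averaged 17.1 CPM with DMSO and 26.1 CPM with IOX5. Of the 10 macrophage markers tested, edgeR called 0 (adjusted p under 0.05) when the sample numbers were not used and 5 higher when the number was a block in the fit, with 1 value of the 10 below 0. The DESeq2 test, also without the sample numbers, called 4 of the 10 higher. The tested markers of 3 other lineages all had positive values, and their summed levels overlapped between groups. Mast cell and basophil markers summed to 187.7 to 725.4 CPM with DMSO and 329.8 to 1138 CPM with IOX5 (10 of 10 with reads, 8 of 8 tested called higher with the block). Megakaryocyte and platelet markers summed to 41.5 to 109.1 and 103.1 to 198.2 CPM (8 of 8 with reads, 4 of 7 tested called higher with the block and 1, *Vwf*, by edgeR without it). DESeq2 called 2 of these 7 higher. Erythroid markers summed to 9.33 to 36.4 and 16.4 to 57.5 CPM (9 of 9 with reads, 3 of 6 tested called higher with the block). The part of these cell type markers in the results for the 10 genes was not tested. In bulk RNA, fewer cells of a type and less RNA per cell cannot be told apart.

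The promoters of *Slc2a1*, *Hk3*, *Hk1* and *Hk2* are shown because *Slc2a1*, *Hk3* and *Hk1* were higher with IOX5 in all 4 replicate numbers, and *Hk2* completes the hexokinase family. The sequences are from RefSeq on GRCm38, read 5′ to 3′ along the strand of the gene and placed before the annotated start, with at most 30 bases of annotated exon. Capitals mark ACGTG or GCGTG, which appear as CACGT or CACGC where they lie on the other strand.
Slc2a1, chr4:119108495-119108740, forward strand: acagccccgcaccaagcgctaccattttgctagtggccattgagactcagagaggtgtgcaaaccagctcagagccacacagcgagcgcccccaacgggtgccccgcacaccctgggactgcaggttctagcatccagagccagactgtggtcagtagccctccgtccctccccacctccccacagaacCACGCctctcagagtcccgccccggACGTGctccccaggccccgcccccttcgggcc
Hk3, chr13:55021386-55021635, reverse strand: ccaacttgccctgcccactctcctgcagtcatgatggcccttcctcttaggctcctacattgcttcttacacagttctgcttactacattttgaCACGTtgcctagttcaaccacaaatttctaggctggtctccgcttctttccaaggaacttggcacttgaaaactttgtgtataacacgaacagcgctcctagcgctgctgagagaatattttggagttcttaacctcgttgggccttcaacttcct
Hk1, upstream start, chr10:62379909-62380158, reverse strand: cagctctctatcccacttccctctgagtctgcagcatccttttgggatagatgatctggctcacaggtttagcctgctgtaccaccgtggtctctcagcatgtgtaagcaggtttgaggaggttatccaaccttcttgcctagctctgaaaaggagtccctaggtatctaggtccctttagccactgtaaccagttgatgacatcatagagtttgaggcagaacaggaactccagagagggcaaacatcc
Hk1, downstream start, chr10:62340513-62340671, reverse strand: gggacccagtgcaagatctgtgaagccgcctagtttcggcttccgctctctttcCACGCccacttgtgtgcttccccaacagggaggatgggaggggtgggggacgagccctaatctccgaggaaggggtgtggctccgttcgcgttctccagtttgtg
Hk2, chr6:82774455-82774704, reverse strand: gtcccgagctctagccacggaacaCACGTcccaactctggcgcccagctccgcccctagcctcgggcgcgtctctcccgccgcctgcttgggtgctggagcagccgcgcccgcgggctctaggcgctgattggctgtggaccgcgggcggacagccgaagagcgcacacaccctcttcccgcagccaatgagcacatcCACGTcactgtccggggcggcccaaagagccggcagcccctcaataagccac

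*Slc2a1* and *Hk2* each held 2 such matches in the stretches shown and *Hk3* held 1. *Hk1* has alternative starts, and the stretch at its upstream start held 0 matches while the one at its downstream start held 1. That downstream stretch is cut to 159 bases, and the bases nearest the start, not shown, held further matches. Over whole windows of 300 bases (250 before the start and 50 after), RefSeq had promoters for 9 of the 10 genes, and *Slc2a3* was not matched. Of their 13 promoters, 11 held ACGTG or GCGTG on either strand, against 43.8% of all 32851 promoters in the table. ACGTG was in 19.6% of all promoters, GCGTG in 32.4%, and CACGTG, which contains ACGTG on both strands, in 7.15%. The *Tigar* promoter and the upstream *Hk1* promoter held neither. Over its whole window the downstream *Hk1* promoter held 2 ACGTG and 3 GCGTG matches. These matches describe letters in a window, and binding of HIF was not measured here.

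With the groups compared as a whole, none of the 10 genes passed the test. By edgeR's quasi-likelihood test with Benjamini-Hochberg adjustment over all 12405 genes tested, 0 of the 10 had an adjusted p under 0.05, with 0.774% of all genes tested called higher, 1.25% called lower and 2.02% called in either direction. The smallest adjusted p was 0.0689, for *Slc2a1*, and 3 of the 10 had an unadjusted p under 0.05, against 20.2% of all genes tested. With the replicate number as a block, 3 genes rose with IOX5 (*Slc2a1*, *Hk1* and *Hk3*) and 1 fell (*Tigar*), against 11.2% of all genes called higher, 9.43% called lower and 20.7% called either way in that fit. DESeq2 without the block called *Slc2a1*, *Hk1* and *Hk3* higher and 0 lower, against 4.67% and 5.75% of the genes for which it gave an adjusted p, 10.4% in all. The 1 gene of 10 called lower with the block is close to the share among all genes. The median log2 fold change of the 10 genes was 0.19, beside 0.02 for all genes tested, and 9 of the 10 values were above 0.

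**Figure D1:**
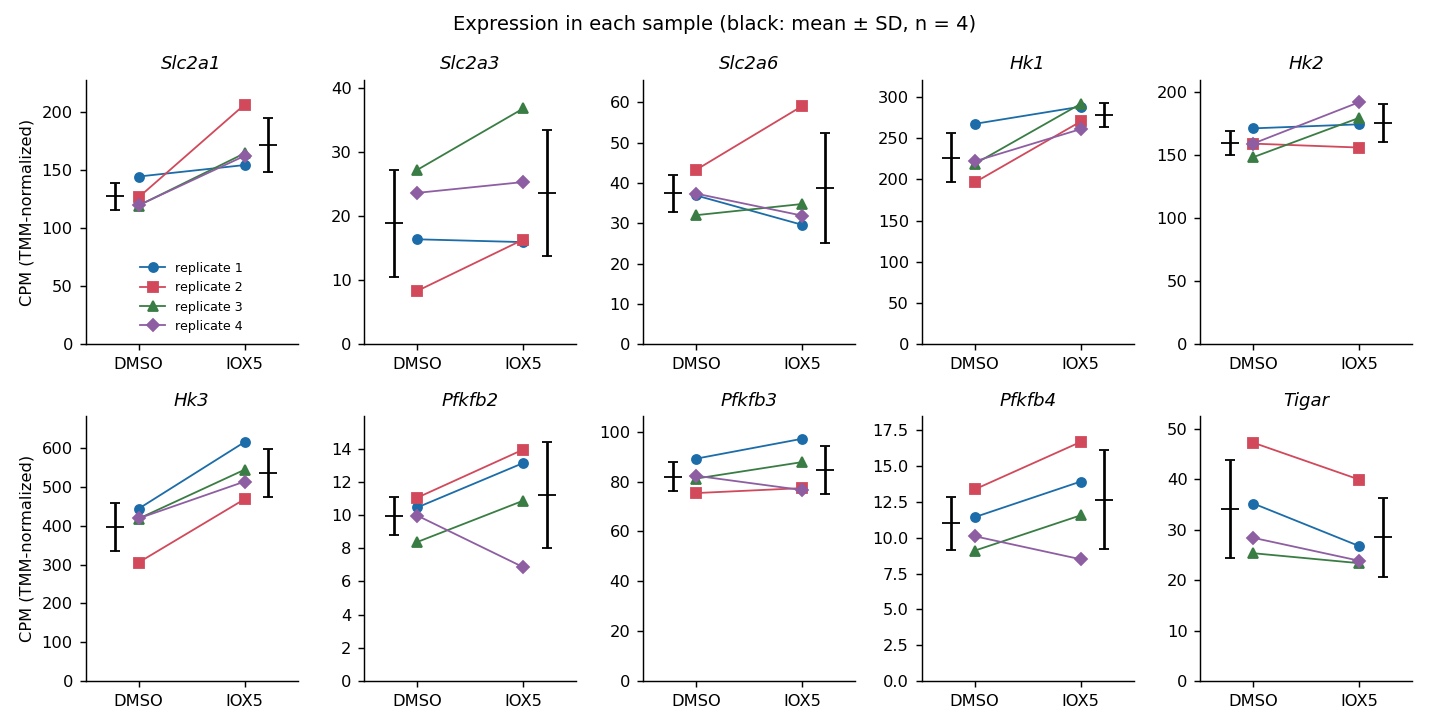
Expression of each gene in each sample, in TMM-normalized CPM on a linear axis from 0, with lines joining DMSO and IOX5 samples that share a replicate number and black bars for mean ± SD (n = 4). *Slc2a1* and *Hk3* show no overlap between groups, all 4 lines of *Hk1* rise and all 4 lines of *Tigar* fall.

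*Slc2a1* encodes GLUT1, the widely expressed transporter for basal glucose uptake, and is annotated on GRCm38 chromosome 4 from 119108711 to 119137983 (forward strand, ENSMUSG00000028645). Its level was 144.5, 126.5, 119.5 and 119.7 CPM in DMSO samples 1 to 4 and 154.4, 206.5, 164.5 and 162.3 CPM in IOX5 samples 1 to 4. Every IOX5 sample lay above every DMSO sample, as for 5.98% of all genes tested, but the lowest IOX5 and the highest DMSO sample, both numbered 1, were close to each other. The mean was 127.5 ± 11.8 CPM with DMSO and 171.9 ± 23.4 CPM with IOX5 (SD, n = 4 each), and the log2 fold change was 0.43 (SE 0.10, 95% confidence interval 0.19 to 0.67, edgeR adjusted p = 0.0689). With the replicate block *Slc2a1* rose by a log2 fold change of 0.43 (edgeR adjusted p = 0.00399). Within numbers 1 to 4 the log2 difference was 0.10, 0.71, 0.46 and 0.44. Number 2 was thus the largest, and its IOX5 sample was also the one with the highest sum of macrophage markers, whose part in the result was not tested. Without number 2, the blocked log2 fold change was 0.33 (edgeR adjusted p = 0.00262).

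*Slc2a3* encodes GLUT3, a transporter with high affinity for glucose that neurons and leukocytes use (chromosome 6, 122727809 to 122801640, reverse strand, ENSMUSG00000003153). It varied more between samples of 1 group than any of the other 9 genes did. Its level was 16.4, 8.32, 27.2 and 23.6 CPM in DMSO samples 1 to 4 and 15.9, 16.3, 36.8 and 25.3 CPM in the IOX5 samples. The groups overlapped widely, samples 3 and 4 of both groups were the high ones, and the coefficient of variation was 44.3% with DMSO and 41.6% with IOX5. The means were 18.9 ± 8.36 and 23.6 ± 9.82 CPM (SD, n = 4 each), with a log2 fold change of 0.32 (95% confidence interval -0.55 to 1.19) and an edgeR adjusted p of 0.682. The block narrowed the interval to 0.05 to 0.62, and the gene was still not called (edgeR adjusted p = 0.084). Single libraries moved the value without the block, to 0.024 without IOX5 sample 3, 0.077 without DMSO sample 2 and 0.55 without DMSO sample 3. The blocked fit called *Slc2a3* higher without number 1, in which the difference was -0.04 (log2 fold change 0.45, edgeR adjusted p = 0.0431), and gave 0.19 without number 2 (edgeR adjusted p = 0.217).

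*Slc2a6* encodes GLUT6, a family member found mainly in lysosomal membranes and in myeloid cells (chromosome 2, 27021363 to 27027998, reverse strand, ENSMUSG00000036067). Its level was 36.9, 43.2, 32.01 and 37.4 CPM in DMSO samples 1 to 4 and 29.6, 59.1, 34.8 and 31.9 CPM in the IOX5 samples. Only IOX5 sample 2 stood above the DMSO range, and 2 of 4 numbers were higher and 2 lower with IOX5. The log2 fold change was 0.05 (95% confidence interval -0.43 to 0.54, edgeR adjusted p = 0.915). It was -0.22 (edgeR adjusted p = 0.314) without IOX5 sample 2 and -0.014 (edgeR adjusted p = 0.981) without DMSO sample 3, so the sign rested on single libraries.

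*Hk1* encodes hexokinase 1, the isozyme of most tissues, which binds mitochondria (chromosome 10, 62268855 to 62379908, reverse strand, ENSMUSG00000037012). Its level was 267.2, 196.2, 218.6 and 221.8 CPM in DMSO samples 1 to 4 and 288.1, 270.1, 291.5 and 260.9 CPM in the IOX5 samples. The groups overlapped only through DMSO sample 1, which lay above IOX5 sample 4, and the IOX5 samples were tightly spaced. The means were 225.9 ± 29.8 and 277.6 ± 14.6 CPM (SD, n = 4 each), and the log2 fold change was 0.30 (SE 0.09, edgeR adjusted p = 0.126). With the block *Hk1* rose by 0.30 (edgeR adjusted p = 0.00984), but without number 3 that call was lost, at a log2 fold change of 0.27 over 3 numbers (edgeR adjusted p = 0.0959).

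*Hk2* encodes hexokinase 2, the isozyme that insulin and hypoxia are known to induce in muscle and many tumors (chromosome 6, 82725025 to 82774454, reverse strand, ENSMUSG00000000628). Its level was 170.9, 158.8, 148.1 and 158.9 CPM in DMSO samples 1 to 4 and 174.1, 155.7, 179.3 and 191.7 CPM in the IOX5 samples. Here 3 of 4 numbers were higher with IOX5 and number 2 was slightly lower, and the groups overlapped. The log2 fold change was 0.14 (SE 0.08, 95% confidence interval -0.03 to 0.31), with an edgeR adjusted p of 0.350 without and 0.189 with the block. *Hk2* was therefore the only hexokinase gene of the 3 that no fit called.

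*Hk3* encodes hexokinase 3, the isozyme of myeloid cells (chromosome 13, 55005985 to 55021385, reverse strand, ENSMUSG00000025877). Its level was 443.9, 305.3, 418.3 and 418.9 CPM in DMSO samples 1 to 4 and 615.9, 468.7, 544.6 and 514.0 CPM in the IOX5 samples. The groups did not overlap, and sample 2 was the lowest in each. The means were 396.6 ± 62.0 and 535.8 ± 61.8 CPM (SD, n = 4 each), and the log2 fold change was 0.43 (SE 0.13, 95% confidence interval 0.15 to 0.72, edgeR adjusted p = 0.108). With the block *Hk3* rose by 0.44 (edgeR adjusted p = 0.000991), the smallest adjusted p of the 10 genes, and it was called in each blocked fit that left out 1 number (adjusted p from 0.000217 to 0.0113). Without number 2, the blocked log2 fold change was 0.38 (edgeR adjusted p = 0.000217). The summed level of 13 neutrophil and granulocyte markers overlapped between groups, at 4892 to 7807 CPM with DMSO and 5544 to 8791 CPM with IOX5, with 0 of the 13 called by edgeR without the block or by DESeq2, 0 at an unadjusted p under 0.05, and 8 called higher with the block. The part of these markers, and of the macrophage markers, in the *Hk3* result was not tested.

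**Figure D2:**
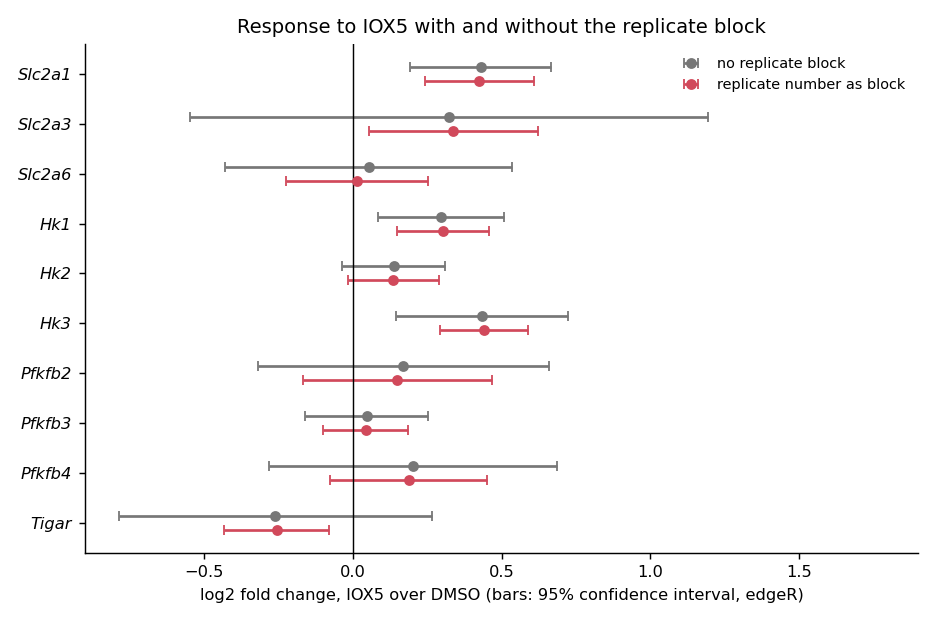
Log2 fold change of each gene, IOX5 over DMSO, from edgeR without (grey) and with (red) the replicate number as a block, with bars for the 95% confidence interval. The points hardly move, while the bars of *Slc2a3* and *Tigar* shorten most, from -0.55 to 1.19 down to 0.05 to 0.62 for *Slc2a3*.

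None of the PFKFB genes was called by any of the 3 fits. *Pfkfb3* encodes the isozyme with the highest ratio of kinase to phosphatase activity, which raises fructose 2,6-bisphosphate (chromosome 2, 11471433 to 11554077, reverse strand, ENSMUSG00000026773). Its level was 89.2, 75.4, 81.2 and 82.3 CPM in DMSO samples 1 to 4 and 97.1, 77.4, 87.8 and 76.6 CPM in the IOX5 samples. The groups overlapped, and the log2 fold change was 0.05 (95% confidence interval -0.16 to 0.25, edgeR adjusted p = 0.811). The value was -0.03 without IOX5 sample 1. *Pfkfb4* (chromosome 9, 108991778 to 109032228, forward strand, ENSMUSG00000025648) was at 11.4, 13.4, 9.10 and 10.1 CPM with DMSO and 13.9, 16.7, 11.6 and 8.50 CPM with IOX5. It was higher in numbers 1 to 3 and lower in number 4, with a log2 fold change of 0.20 (SE 0.21, edgeR adjusted p = 0.641).

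*Pfkfb2*, the isozyme known from heart muscle (chromosome 1, 130689182 to 130729253, reverse strand, ENSMUSG00000026409), had the same ups and downs as *Pfkfb4*. Its level was 10.5, 11.04, 8.37 and 9.96 CPM with DMSO and 13.1, 13.9, 10.9 and 6.85 CPM with IOX5, again lower with IOX5 only in number 4. The log2 fold change was 0.17 (SE 0.22, edgeR adjusted p = 0.708). Without IOX5 sample 4, the log2 fold changes became 0.34 for *Pfkfb2* and 0.35 for *Pfkfb4*, and without IOX5 sample 2 they became 0.048 and 0.043. Neither gene was called in these fits. The exons of *Pfkfb2* share 1262 bases with *Gm29427* on the same strand and 154 bases with *Yod1* on the opposite strand. *Gm29427* had 0 reads and *Yod1* 2904 reads in all 8 samples, so reads in the shared stretch can be missing from *Pfkfb2*.

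*Tigar* encodes a phosphatase that lowers fructose 2,6-bisphosphate (chromosome 6, 127085116 to 127109557, reverse strand, ENSMUSG00000038028), and it was the only gene of the 10 with a negative value. Its level was 35.2, 47.3, 25.4 and 28.4 CPM in DMSO samples 1 to 4 and 26.8, 40.0, 23.4 and 23.9 CPM in the IOX5 samples. It was lower with IOX5 in 4 of 4 numbers, as were 19.8% of all genes tested, but the groups overlapped. Sample 2 was the highest in both groups, and IOX5 sample 1 also lay above DMSO sample 3. *Tigar* is thus not among the 8.30% of genes with every IOX5 sample below every DMSO sample. The means were 34.1 ± 9.73 and 28.5 ± 7.80 CPM (SD, n = 4 each), and the log2 fold change was -0.26 (SE 0.23, edgeR adjusted p = 0.572). It was -0.061 without DMSO sample 2 and -0.47 without IOX5 sample 2. With the block *Tigar* fell by 0.25 on the log2 scale (edgeR adjusted p = 0.0423). That call was lost without any 1 of the 4 numbers, with adjusted p from 0.0518 to 0.173.

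Within replicate numbers, 3 of the 10 genes were higher with IOX5 in 4 of 4 numbers, beside 21.3% of all genes tested, and 1 was lower in 4 of 4. The 10 genes are thus close to the share of all genes on this count. Number 4 was the one in which *Pfkfb2*, *Pfkfb3* and *Pfkfb4* were all lower with IOX5, and number 2 gave the largest difference of *Slc2a1*, *Slc2a3*, *Slc2a6*, *Hk1* and *Hk3*.

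Levels were compared between genes only per length, as CPM per kilobase of annotated exon. In both groups *Hk3* was the highest, at 107.7 ± 16.9 with DMSO and 145.5 ± 16.8 with IOX5 (SD, n = 4 each), and *Slc2a1* came next at 36.4 ± 3.35 and 49.0 ± 6.69. *Hk2* and *Hk1* followed at 26.7 and 26.5 with DMSO and at 29.3 and 32.5 with IOX5, and their sample ranges overlapped in both groups. *Slc2a6* (11.6 and 12.1), *Pfkfb3* (10.8 and 11.2) and *Tigar* (9.31 and 7.79) formed a middle tier in which neighbors overlapped. *Slc2a3* (2.61 and 3.26), *Pfkfb4* (2.26 and 2.60) and *Pfkfb2* (1.37 and 1.54) were lowest, with overlap between *Slc2a3* and *Pfkfb4* in both groups and between *Pfkfb4* and *Pfkfb2* only with IOX5. The order rests partly on the length chosen: with the longest annotated transcript in place of all exons, *Hk1* came before *Slc2a1*, at 52.8 against 39.1 with DMSO and 64.9 against 52.7 with IOX5. On that length *Hk2* was at 28.9 with DMSO and 31.8 with IOX5, and its range no longer overlapped that of *Hk1* in either group.

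Per length, 1 gene supplied most of each family's RNA. *Hk3* made up 66.7% ± 2.97 of hexokinase RNA with DMSO and 70.1% ± 1.79 with IOX5 (SD, n = 4 each), *Hk2* 16.8% and 14.2%, and *Hk1* 16.5% and 15.8%. *Slc2a1* made up 71.8% ± 2.27 of the RNA of the 3 transporters with DMSO and 76.4% ± 2.50 with IOX5, and *Slc2a6* 23.0% and 18.4%. *Pfkfb3* made up 74.9% ± 3.43 of the RNA of the 3 PFKFB genes with DMSO and 73.3% ± 5.59 with IOX5. The leading gene of each family was the same in all 8 samples. These shares also rest on the length chosen. With the longest transcript as length, *Hk3* made up 59.95% with DMSO and 63.1% with IOX5, *Hk1* 25.8% and 24.7%, and *Hk2* 14.25% and 12.1%.

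**Figure D3:**
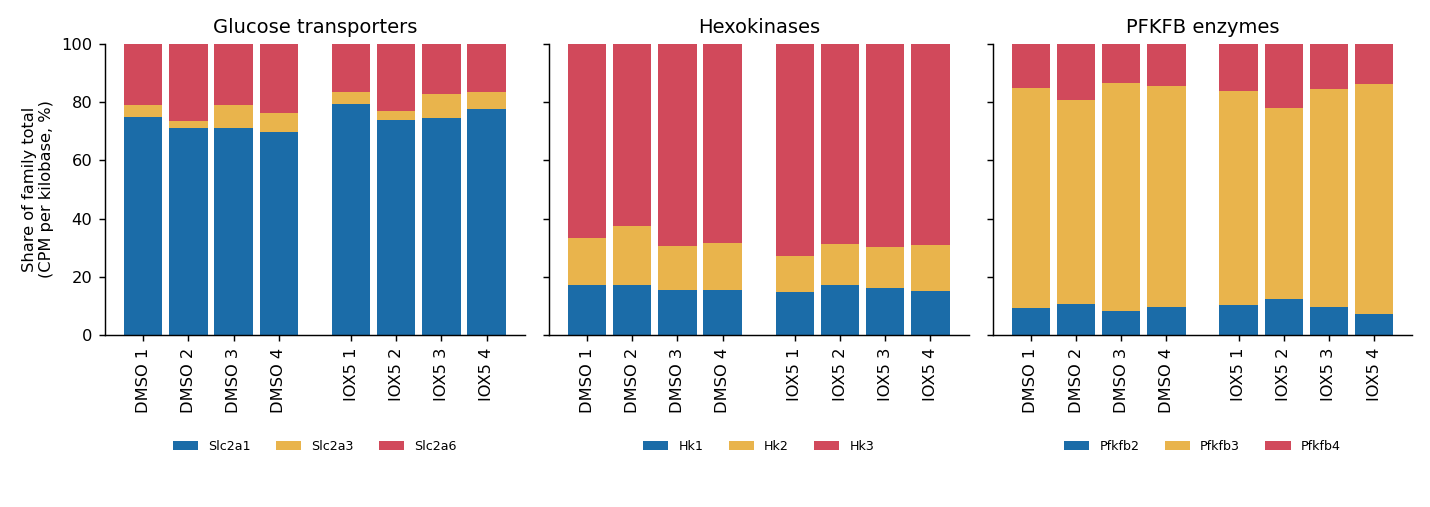
Share of each gene in the summed CPM per kilobase of its family, in percent, for each of the 8 samples. *Slc2a1*, *Hk3* and *Pfkfb3* fill most of each bar in every sample, and the lowest share of *Hk3* is 62.6%, in DMSO sample 2.

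Whether 2 genes of a family responded differently was tested on the log2 ratio of their CPM within each sample, by an exact two-sided permutation test over the 70 assignments of the samples, for all 9 pairs within the families. None of the 9 reached an adjusted p under 0.05. The smallest unadjusted p the design allows is 0.0286, and adjustment over 9 pairs lifts it above 0.05 unless most pairs reach it. The test could therefore hardly pass the threshold and does not decide whether responses differed. The smallest p obtained was for *Hk2* over *Hk3*, where the mean log2 ratio was -1.30 ± 0.25 with DMSO and -1.61 ± 0.16 with IOX5 (SD, n = 4 each), a difference of -0.31 (exact permutation p = 0.0571, adjusted p = 0.386). The ratio was lower in 4 of 4 numbers. The ratio of *Slc2a1* over *Slc2a6* was higher in 4 of 4 numbers, with a difference of 0.42 (exact permutation p = 0.0857, adjusted p = 0.386). *Hk1* over *Hk2* differed by 0.17 and *Hk1* over *Hk3* by -0.14 (exact permutation adjusted p = 0.45 for each). Whether the hexokinase genes responded differently from each other was thus not decided, although *Hk2* missed the threshold in fits where *Hk1* and *Hk3* passed it.

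Other genes of glucose uptake and the early steps gave more calls with the block than without it. Of all genes tested, edgeR called 20.7% either way with the block and 2.02% without it. Of 12 other sugar transporter genes, such as *Slc2a4* for the insulin-responsive GLUT4, only 3 had enough reads to be tested. By edgeR without the block 0 were called, with 1 at an unadjusted p under 0.05 (*Slc50a1*), which DESeq2 called. With the block, *Slc50a1*, the mammalian SWEET transporter, rose (log2 fold change 0.42, edgeR adjusted p = 0.00461). Of 15 other enzymes of hexose and fructose 6-phosphate metabolism, 9 were tested and 1 was called higher. That gene was *Pfkl*, the liver-type phosphofructokinase that fructose 2,6-bisphosphate activates, at 272.0, 215.1, 247.0 and 262.1 CPM with DMSO and 334.0, 355.1, 386.8 and 381.4 CPM with IOX5 (log2 fold change 0.55, SE 0.08, edgeR adjusted p = 0.0254). Its groups did not overlap, and the other phosphofructokinase genes *Pfkm* and *Pfkp* had log2 fold changes of 0.12 and 0.09 (edgeR adjusted p = 0.634 and 0.728). With the block 3 of the 9 were called higher (*Pfkl*, *Fbp1* and *Nagk*) and 1 lower (*Adpgk*). *Fbp1*, a gluconeogenic phosphatase, was at 0.311 CPM in DMSO sample 2 and 7.27 to 9.59 CPM in the other DMSO samples, and was higher with IOX5 in 4 of 4 numbers.

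Among genes of the later steps of glycolysis, 7 rose. Of 17 genes from *Gpi1* to the lactate transporters, 14 were tested, and 7 were called higher. Their median log2 fold change was 0.38. None was called lower by edgeR without the block, although *Slc16a1* had an unadjusted p under 0.05 and was called lower by DESeq2. The 4 with the smallest adjusted p were *Pgk1*, phosphoglycerate kinase (log2 fold change 0.57, edgeR adjusted p = 0.0254), *Pkm*, pyruvate kinase (0.44, 0.0282), *Gpi1*, the isomerase that follows hexokinase (0.39, 0.0296), and *Aldoa*, aldolase (0.35, 0.0409), tied with *Eno1*, enolase (0.39, 0.0409). With the block, 10 were called higher and 1 lower, the lower one being *Slc16a1*, the lactate transporter MCT1, at 239.0 ± 34.0 CPM with DMSO and 168.2 ± 35.5 CPM with IOX5 (SD, n = 4 each). The log2 fold changes of *Slc2a1* and *Hk3* lay between those of *Aldoa* and *Pgk1*, and their standard errors were larger, at 0.10 and 0.13 against 0.07 for *Gpi1*, *Pkm* and *Aldoa*.

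Of 16 HIF target genes outside glycolysis, 15 were tested and all had positive values. Of these 15, 7 were called higher and 8 did not pass the test, and the median log2 fold change was 0.55. The strongest by adjusted p were *Ankrd37* (1.38), *Pdk1*, the kinase that restrains pyruvate dehydrogenase (0.67), *Kdm3a*, a histone demethylase (0.55), and *Bnip3l*, a mitophagy receptor (0.65), with edgeR adjusted p of 0.0143, 0.0157, 0.0197 and 0.046. With the block 14 of the 15 were called higher. Of 12 regulators of glucose uptake and of these pathways, edgeR without the block and DESeq2 each called 0, and 1 (*Txnip*) had an unadjusted p under 0.05. Their median log2 fold change was -0.06. With the block 1 was called higher, *Txnip*, which is known to lower glucose uptake by acting on GLUT1 (log2 fold change 0.37, edgeR adjusted p = 0.0347). Of 12 p53 targets, 1 was called higher (*Trp53inp1*, log2 fold change 0.93, edgeR adjusted p = 0.0333), and with the block 8 were called higher. *Tigar*, itself a p53 target, had the opposite sign to the median of that list, 0.50, but was not called without the block (edgeR adjusted p = 0.572). On that list 2 of the 12 genes were also below 0, *Sesn2* (-0.20) and *Aen* (-0.04).

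**Figure D4:**
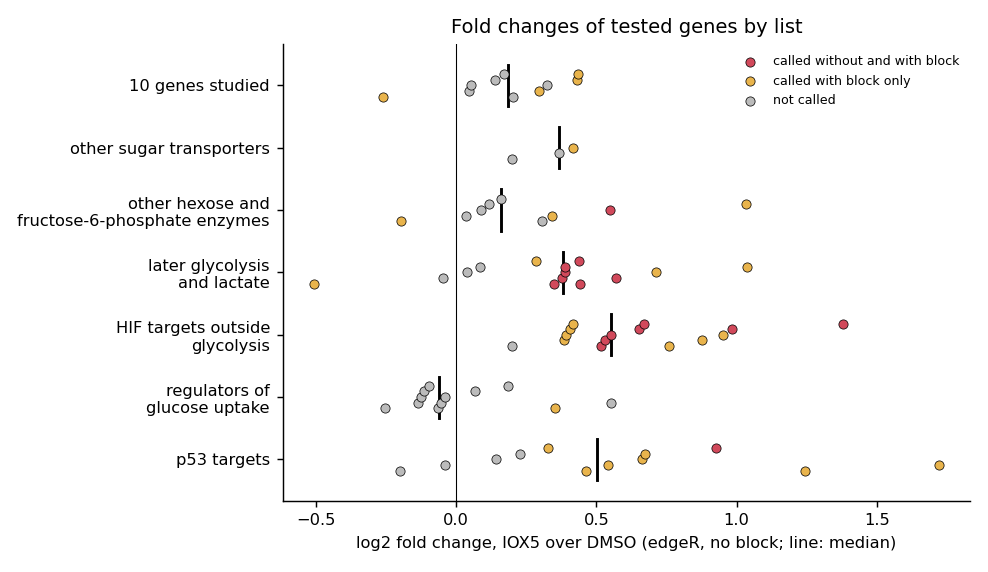
Log2 fold change, IOX5 over DMSO (edgeR without the block), of each gene tested in each list, 1 point a gene, with a vertical line at the list's median. Points are red where the gene was called without and with the block, yellow where it was called only with the block, and grey where it was not called, and none of the 10 genes of glucose entry is red.

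The genes whose pattern over the 8 samples was most like that of the 4 genes called with the block were found by the root mean square difference of centered log2 CPM, over 12036 genes. For *Hk3* these were *Nucb1* (0.06) and *Nfe2* (0.06), and for *Hk1* *Ggh* (0.05) and *Mapk1ip1* (0.05). For *Slc2a1* they were *Ech1* (0.07) and *Sertad1* (0.07), and for *Tigar* *Ttc17* (0.08) and *Slc39a14* (0.09). *Nucb1* averaged 447.8 ± 66.1 CPM with DMSO and 602.6 ± 64.5 CPM with IOX5 (SD, n = 4 each). The points share their libraries and depth, so this likeness is a description.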

How the data were processed

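Poly(A) RNA of 8 samples, 4 with DMSO and 4 with IOX5, was prepared with a directional kit and read from 1 end. The authors removed adaptors with Cutadapt 1.18, mapped reads to GRCm38 with HISAT2 2.2.1 and deposited raw counts per gene made with htseq-count (HTSeq 2.0.1), per the labels and the paper's methods. The annotation and strand setting of the counting are not given in the sources used here, but the antisense genes *Xist* and *Tsix* had 105071 and 21 reads. Identifiers were matched to GENCODE M21 for 54809 of 54838 genes. The summary lines of each file (20.65% to 22.56% of reads) were left out. Where a symbol had more than 1 identifier (*Aldoa*), the one with more reads was used.

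Counts were filtered with filterByExpr, scaled by TMM (factors 0.988 to 1.03) and tested with the quasi-likelihood test of edgeR 4.0.16 in R 4.3.3 without a block, and a gene was called at an adjusted p under 0.05 (Benjamini-Hochberg, 12405 genes). The common biological coefficient of variation was 0.202. Log2 CPM used a prior count of 2. Deviations from group means correlated between samples of the same number at 0.758, 0.744, 0.732 and 0.636 (at most 0.685 between numbers), so a fit blocked on that number (the replicate block) is given where it changes a call. DESeq2 1.42.0, other scalings, no low-count filter and fits leaving out samples were alternatives. Levels per length used all annotated exons merged.

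The 10 genes and the lists were chosen with earlier results of these data known. The genes named are all 10, in each other list the called genes, at most 4 by smallest adjusted p, and for each of the 10 called by edgeR without or with the block the 2 genes of most similar pattern. Genes called only with the block, *Pfkm*, *Pfkp* and cell-type markers were named after their values were seen. The scripts were tested on simulated data.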

Additional observations from a re-analysis of the deposited data

How the results depend on the processing

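What the replicate numbers stand for is not given, so pairing by number is an assumption. For number 4 the correlation within the number (0.636) was below the highest with another number (0.685). The replicate block moved the number of the 10 genes called higher from 0 to 3 and called lower from 0 to 1. DESeq2 called 3 higher and 0 lower. RLE or upper-quartile scaling, dropping the low-count filter, and each fit without 1 sample called 0 of the 10. Without DMSO sample 3, DMSO sample 4 or IOX5 sample 3, the fit called 0 genes of all tested (1969, 1846 and 2111 at an unadjusted p under 0.05). Leaving out 1 number from the fit with the replicate block gave 2 to 4 genes called higher, with *Slc2a3* added without number 1 and *Hk1* lost without number 3, and the call of *Tigar* was lost each time. Scaling moved the median log2 fold change of all genes from 0.02 to 0.03 at most.

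Leaving out single samples turned the sign only of values that were not called, and the cause was not tested. The log2 fold change of *Slc2a6* ranged from -0.22 to 0.16 (-0.014 without DMSO sample 3), and with the replicate block it was -0.14 without number 2 and -0.022 without number 3. For *Pfkfb3* it ranged from -0.025 to 0.092. The difference in response of *Slc2a1* over *Slc2a3* ranged from -0.19 to 0.40, of *Slc2a3* over *Slc2a6* from -0.060 to 0.72, of *Pfkfb2* over *Pfkfb3* from -0.080 to 0.25 and of *Pfkfb3* over *Pfkfb4* from -0.27 to 0.056. The exact sign-flip test within numbers, the paired (replicate block) form of this test, could not pass the threshold with 4 numbers and tells nothing about these ratios. The levels per length of 7 genes moved by more than 1 SD in at least 1 group with the longest transcript as length, most for *Hk1*. The standard error was 0.38 for *Slc2a3*, with 2126 reads over the 8 samples, and 0.22 for *Pfkfb2*, with 1061. How far read totals set the precision was not tested.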
